A study of Danio rerio with 31 samples.

Results

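The genes described here encode the core of neurotransmitter release: synapsins, synaptophysins, synaptotagmin and the SNARE proteins of the synaptic vesicle cycle. They were chosen by symbol, with or without the paralog letter of the zebrafish gene, and no measured value entered the rule. Earlier results of these data were known when the genes were chosen. The rule found 9 of the 32520 gene IDs, and all 9 passed the filter on low counts in each comparison. The IDs are syn1, SYN2 and syn2b for the synapsins, sypa and sypb for the synaptophysins, SYT1 for the calcium sensor, and 2 SNAP25 genes and vamp2 for the SNAREs. The name table gives SYN2 and SYT1 with no paralog letter and gives SNAP25 to both ENSDARG00000020609 and ENSDARG00000058117. Which of these IDs is the a or the b copy was not resolved, and reads of near-identical stretches may have been lost or split between copies.

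The brains came from 24 adult fish (TU line) and were sequenced whole. Of the F0 males, 6 were treated and 6 were controls; the treatment was exposure to PCBs (polychlorinated biphenyls, chlorinated industrial oils) mixed with PBDEs (polybrominated diphenyl ethers, brominated flame retardants). The F2 fish were unexposed descendants: 4 females of the treated line and 4 of the control line, and 2 males of the treated line and 2 of the control line. The sources used here give no dose, route or length of the exposure and no age in days. They give no family or tank either, so an effect of these cannot be told apart from the arm or the line.

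Synaptic vesicles are held in a reserve inside the nerve terminal by synapsins, which bind vesicles to each other and to actin. When calcium enters, synaptotagmin on the vesicle binds it and drives fusion through the SNARE complex, in which VAMP2 on the vesicle zips together with SNAP25 and syntaxin on the plasma membrane. Synaptophysin is an abundant protein of the vesicle membrane that binds VAMP2 and takes part in its retrieval. The genome was duplicated in the ancestor of teleost fish, and zebrafish keep many of these genes as a and b copies.

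Levels are given in CPM, gene reads scaled to the library size multiplied by the library's TMM factor, a scaling between libraries computed by edgeR. They are given for each fish and are not corrected for gene length, so they compare fish and not genes. The TMM factors were 0.889 to 1.04 in treated and 1.04 to 1.101 in control F0 males, so this scaling raises treated levels relative to control levels in F0 males. Changes are log2 fold changes with the standard error (SE), from edgeR's quasi-likelihood test with Benjamini-Hochberg adjustment over all genes tested, and a gene was called at an adjusted p below 0.05. In whole brain, fewer cells of a type and less RNA per cell cannot be told apart. Gene reads per fish were 20.9 to 34.1 M in treated and 16.4 to 26 M in control F0 males, 15.2 to 22.8 M and 18.1 to 30.1 M in F2 females of the treated and control line, and 12.2 to 15.7 M and 16.6 to 24.7 M in F2 males of the treated and control line. The fewest reads of any of the 9 genes in any fish were 1567. Counting error was not compared with the spread between fish gene by gene. That spread was narrow in some groups, with a coefficient of variation of 0.161% for SYT1 in the 2 control-line F2 males. Of the uniquely aligned reads, 16.6 to 19.5% fell outside genes in treated F0 males and 19.9 to 21.4% in control F0 males, ranges that did not overlap. Of 25 neuron markers, 24 had a median of at least 1 CPM over the fish. The neuron markers summed to 6472 to 6900 CPM in treated F0 males and 6017 to 6804 CPM in control F0 males.

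In treated F0 males, 4 of the 9 genes rose against control males and 0 fell: syn2b, sypa, sypb and the SNAP25 gene ENSDARG00000058117. Among all 18057 genes tested, 6.32% were called higher, 5.09% lower and 11.4% in either direction. The 4 rises were modest, between 0.33 and 0.48 on the log2 scale. The median log2 change of the 9 genes was 0.33, against -0.02 over all genes. The other 5 genes lay between -0.19 and 0.35 and did not pass.

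**Figure D1:**
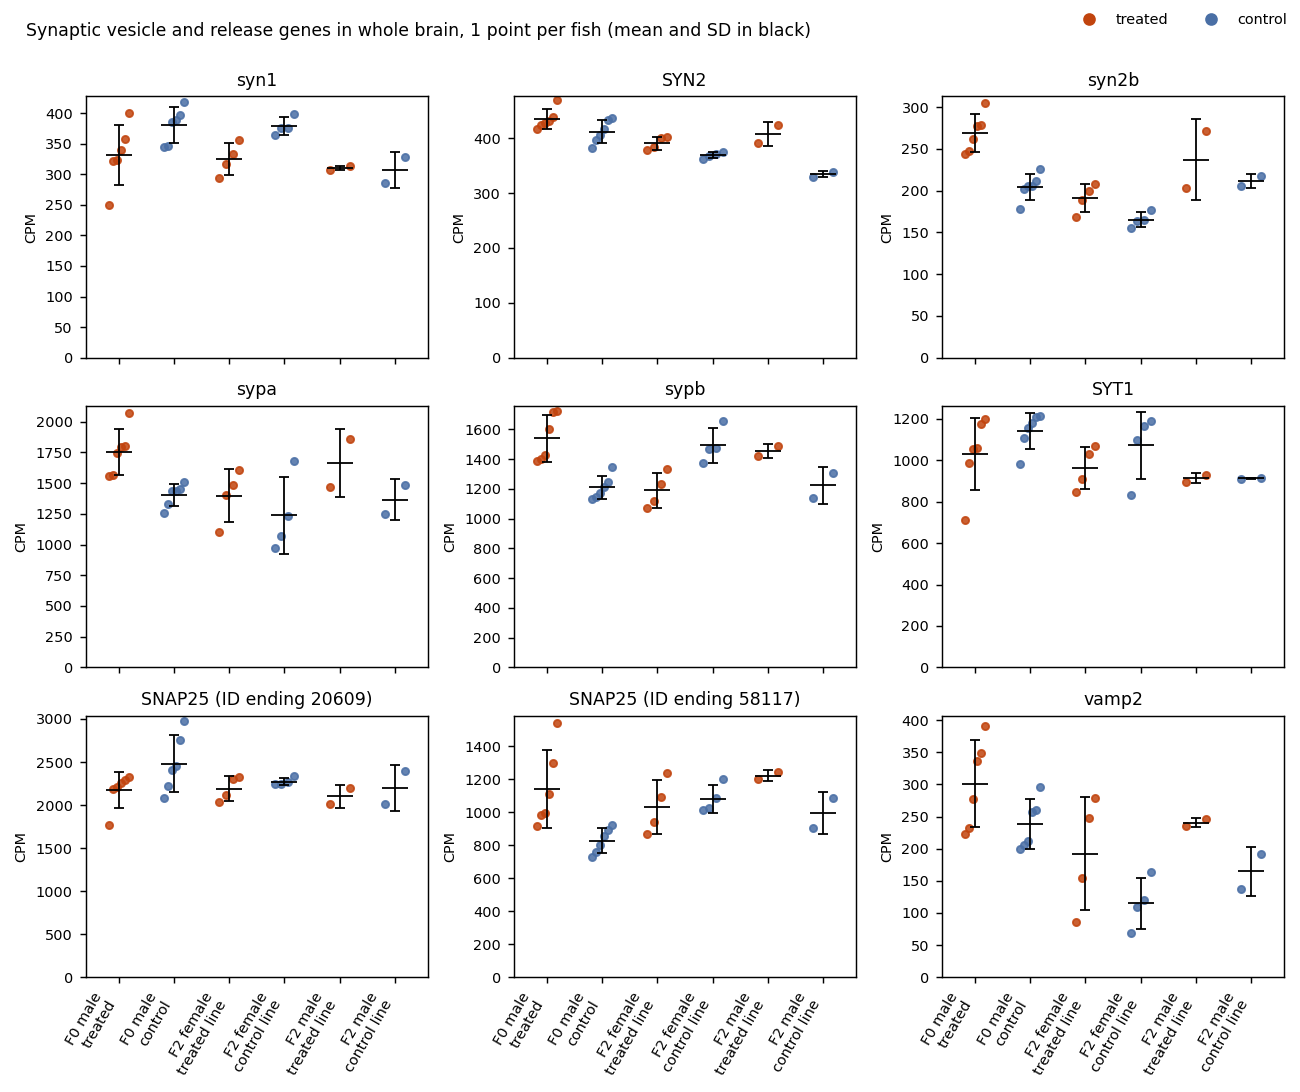
Level of each of the 9 genes in TMM-scaled CPM (vertical axis, from 0), 1 point per fish, by generation, sex and arm, with treated fish to the left of control fish and the mean and SD in black. All 6 treated F0 males lie above all 6 control males for syn2b, sypa and sypb on this scale, and without TMM factors for syn2b alone.

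The synapsins were not alike. The level of syn2b (ENSDARG00000101054), a copy of the gene for synapsin II, was lowest at 243, median 269 and highest at 305 CPM in treated F0 males, and lowest at 178, median 205 and highest at 226 CPM in control males. Every treated male was above every control male, and the log2 change was 0.40 (SE 0.0809, adjusted p = 0.0153). SYN2 (ENSDARG00000045945), the other synapsin II gene, had 417, 429 and 469 CPM as lowest, median and highest in treated males, against 383, 412 and 436 CPM in control males. The SYN2 ranges overlapped, although all 6 treated males were above the control mean (3 of 6 without TMM factors), and the log2 change of 0.09 (SE 0.0651) did not pass (adjusted p = 0.398). For syn1 (ENSDARG00000060368), the gene for synapsin I, treated males had 250.3, 332 and 400 CPM as lowest, median and highest, and control males 344, 387 and 419 CPM. Its ranges overlapped, 5 of 6 treated males were below the control mean, and the log2 change was -0.19 (SE 0.0973, adjusted p = 0.211).

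Both synaptophysin genes rose in treated F0 males. The sypa level (ENSDARG00000110528) was 1559.5 CPM at its lowest, 1768 at the median and 2068 at its highest in treated males, and 1258, 1436 and 1509 CPM in control males. The sypb level (ENSDARG00000002230) was 1386, 1512 and 1723 CPM in treated males, and 1131, 1193 and 1348 CPM in control males. On the TMM-scaled levels the arms overlapped for neither copy, with log2 changes of 0.33 (SE 0.0835, adjusted p = 0.0257) for sypa and 0.36 (SE 0.0841, adjusted p = 0.0209) for sypb. Arms without overlap and with the treated fish higher were seen in 3 of the 9 genes, and in 2.82% of all genes tested, with 2.72% the other way and 5.54% either way. On reads over library size alone, without TMM factors, syn2b was the only 1 of the 9 genes without overlap, against 1.46% of all genes with the treated males higher. Its range was then 247.6 to 281 CPM in treated and 188 to 245 CPM in control males. On that scale sypa had 1587 to 1839 CPM in treated and 1385 to 1611 CPM in control males, and sypb 1405 to 1677 CPM in treated and 1179 to 1459.8 CPM in control males. All 6 treated males were still above the control mean for both.

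SYT1 (ENSDARG00000030614), the gene for the calcium sensor synaptotagmin 1, did not pass in F0 males. Its lowest, median and highest levels were 709.8, 1056 and 1196 CPM in treated males and 981, 1169 and 1211 CPM in control males. The lowest treated male was fish 16, and 4 of 6 treated males were below the control mean. The log2 change was -0.14 (SE 0.109, adjusted p = 0.428).

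The 2 SNAP25 genes went opposite ways relative to the control mean in each of the 6 treated males. ENSDARG00000058117 had 916, 1052 and 1544 CPM as lowest, median and highest in treated males, against 729.8, 829.4 and 924 CPM in control males. All 6 treated males were above the control mean, and the ranges overlapped only in that treated male 2, at 916 CPM, was below control male 25, at 924 CPM. ENSDARG00000058117 rose by 0.48 on the log2 scale (SE 0.121, adjusted p = 0.0272). ENSDARG00000020609 had 1764, 2229 and 2328 CPM in treated males, against 2077, 2431 and 2974 CPM in control males. All 6 treated males were below the control mean, but the ranges overlapped and the log2 change of -0.18 (SE 0.0978) did not pass (adjusted p = 0.224). vamp2 (ENSDARG00000056877), the gene for the vesicle SNARE, had 222, 306 and 390.3 CPM in treated males, against 199.7, 235 and 296 CPM in control males. Its ranges overlapped, and the log2 change of 0.35 (SE 0.14, unadjusted p = 0.0257) did not pass (adjusted p = 0.113).

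**Figure D2:**
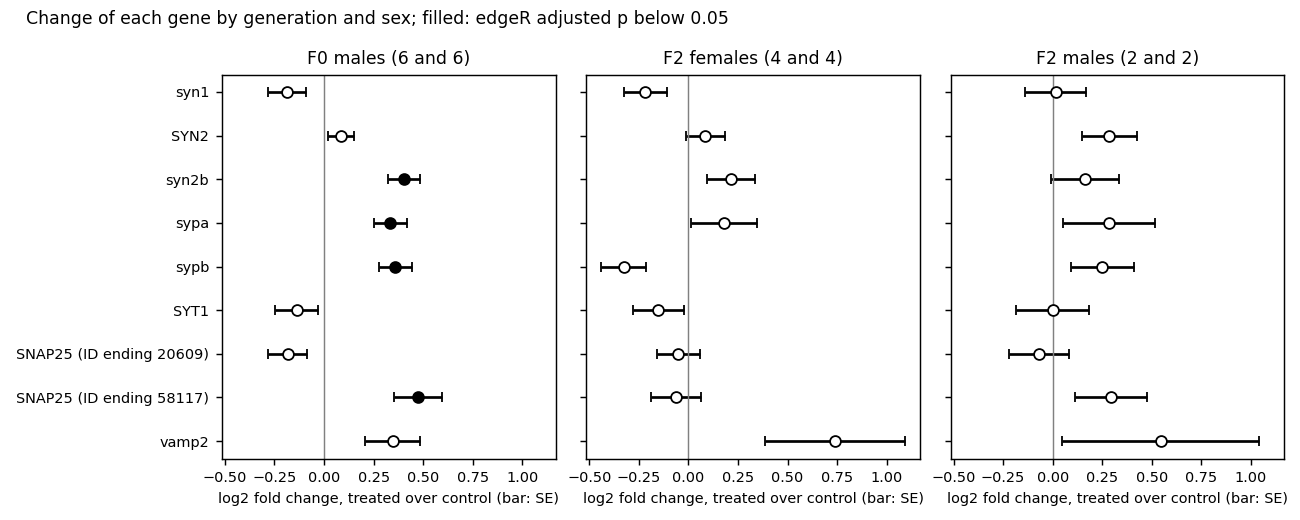
Log2 fold change of treated over control fish for each gene (horizontal axis; bars are the SE), in F0 males, F2 females and F2 males, with filled points at an edgeR adjusted p below 0.05. The 4 filled points are all in F0 males, and sypb lies on opposite sides of 0 in F0 males (0.36) and F2 females (-0.33).

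Ratios of related genes within a fish do not depend on the scaling between libraries. They are given as a description, with no test, because the differences above were known when they were chosen. The share of other gene pairs whose ratio separates the arms was not counted, in F0 males or in F2 females. The ratio of syn2b to syn1 was 0.833 ± 0.203 (SD, n = 6) in treated F0 males and 0.539 ± 0.0415 (SD, n = 6) in control males. Without fish 16 it was 0.755 ± 0.0806 (SD, n = 5) in treated males. Its ranges, 0.619 to 1.22 in treated and 0.482 to 0.594 in control males, did not overlap. The ratio of syn2b to SYN2 was 0.620 ± 0.0685 in treated and 0.499 ± 0.0544 in control males (SD, n = 6 each), and its ranges, 0.527 to 0.715 in treated and 0.411 to 0.556 in control males, overlapped. The ratio of SNAP25 ENSDARG00000058117 to ENSDARG00000020609 was 0.538 ± 0.175 in treated and 0.339 ± 0.0571 in control males (SD, n = 6 each), and 0.471 ± 0.0643 in treated males without fish 16. Its ranges, 0.393 to 0.875 in treated and 0.245 to 0.411 in control males, overlapped. The ratio of sypa to sypb was 1.14 ± 0.0713 in treated and 1.16 ± 0.105 in control males, a difference smaller than the spread between fish.

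**Figure D3:**
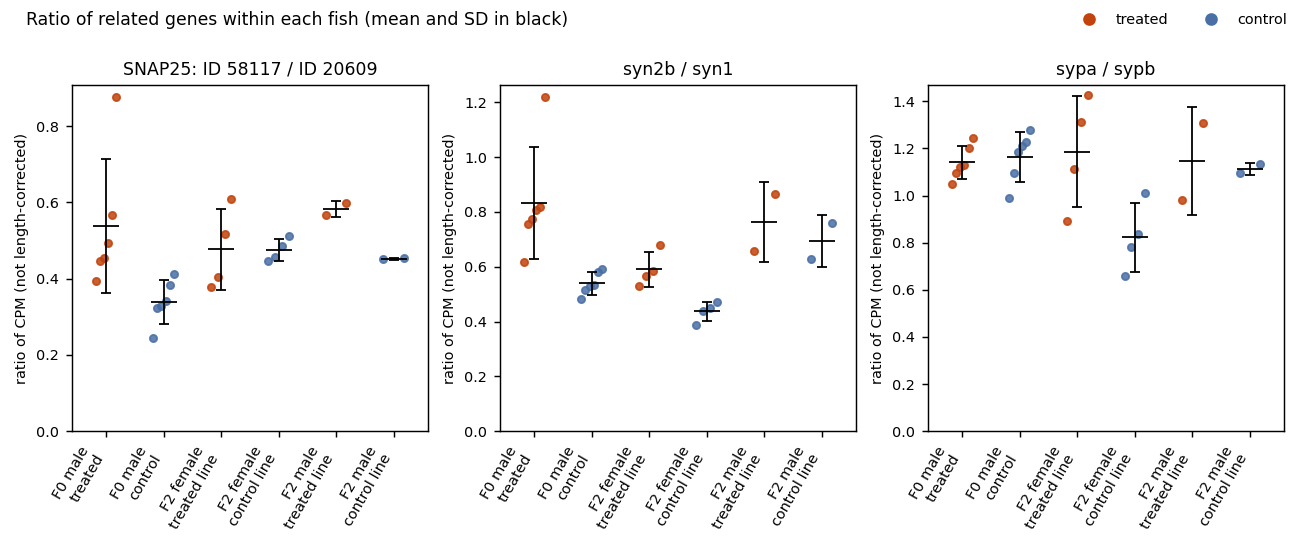
Ratio of CPM of related genes within each fish (vertical axis, from 0, not corrected for length), 1 point per fish, with treated fish left of control fish and the mean and SD in black. The syn2b to syn1 ratio separates the arms in F0 males and F2 females, where the share of reads outside genes separates them too. The sypa to sypb ratio is alike in both arms of F0 males (1.14 and 1.16).

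Of the 4 calls, those of sypa, sypb and SNAP25 ENSDARG00000058117 depended on single fish, and none of the 4 held with the outside-gene share as a covariate. Without treated male 16 and control males 9 and 33, which an earlier analysis of these data had set apart, 0 of the 9 genes passed and 0.227% of all genes did. The log2 changes were then 0.37 for syn2b (adjusted p = 0.0635), 0.26 for sypa and 0.28 for sypb (adjusted p = 0.0961 for both), and 0.30 for SNAP25 ENSDARG00000058117 (adjusted p = 0.129). Leaving out 1 fish at a time, syn2b passed each time, with an adjusted p between 0.0074 and 0.0409. It was the only 1 of the 9 genes called without treated male 24, control male 9 or control male 33. Calls over all genes fell in these fits too, to 250 higher and 265 lower of 18227 without treated male 24. They were 304 and 311 of 18367 without control male 9, and 211 and 229 of 18367 without control male 33. When control male 31 was left out, sypa lost the call (adjusted p = 0.0569) and 3 genes were left, with 430 genes higher and 377 lower of 18165 over all genes. With all 12 males, 4 of the 9 genes were also called with median-of-ratios size factors in edgeR (10.9% of all genes), DESeq2 (20%), no filter on low counts (6.16%) or first runs only (11.4%). With all 24 fish in one model 3 were called, against 3.73% of all genes. Without TMM factors, a setting added after the results were seen, 3 of the 9 genes were called, against 7.61% of all genes. This scaling took the median log2 change of all genes to -0.13, and the calls of all genes to 337 higher and 1038 lower, against 1141 higher and 919 lower with TMM. The log2 changes were then 0.28 for syn2b (adjusted p = 0.0325), 0.24 for sypb (adjusted p = 0.0483) and 0.35 for ENSDARG00000058117 (adjusted p = 0.0452), while sypa had 0.21 (adjusted p = 0.0515) and SYN2 turned to -0.03.

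When the share of reads outside genes was added as a covariate, 0 of the 9 genes and 0% of all genes passed. The log2 changes were then 0.29 (SE 0.125) for syn2b, 0.11 (SE 0.107) for sypa, 0.18 (SE 0.118) for sypb and 0.13 (SE 0.173) for SNAP25 ENSDARG00000058117. The values of syn1 and SYT1 changed sign under that covariate, to 0.18 (SE 0.112) and 0.33 (SE 0.108). The share and the arm move together in F0 males, and their parts in these differences cannot be told apart.

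**Figure D4:**
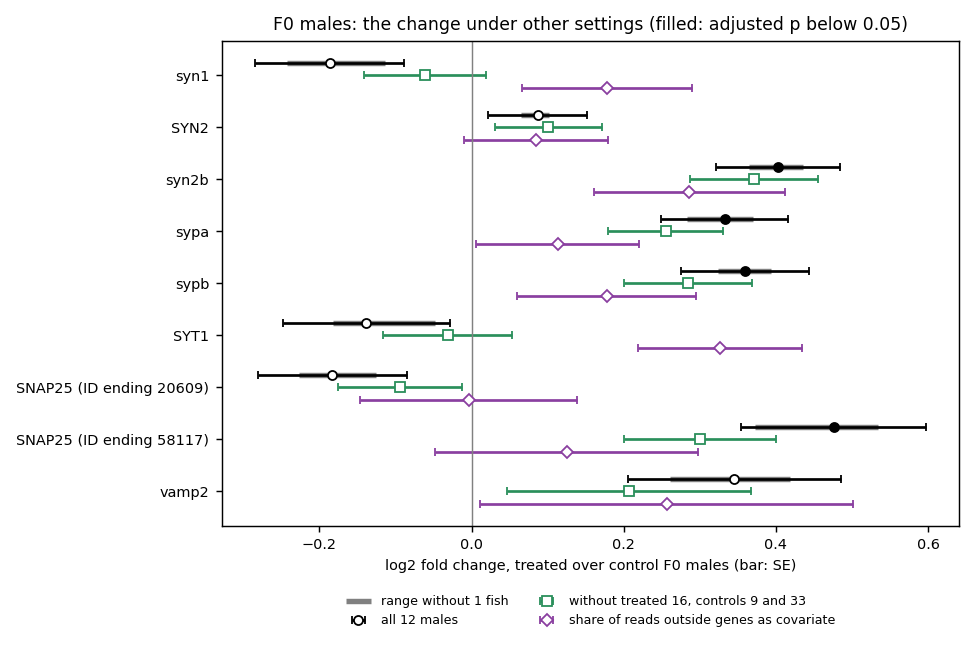
Log2 fold change of treated over control F0 males for each gene (horizontal axis; thin bars are the SE, thick grey bars the range when 1 fish is left out), from all 12 males, without 3 libraries, and with the outside-gene share as a covariate. Filled points passed an edgeR adjusted p of 0.05, and 4 do so in the comparison of all 12 males and 0 under the other settings.

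Across the 24 fish, after taking off the mean of each of the 6 groups, the level of 2 of the 9 genes was correlated with the share of reads outside genes by Pearson's r, and 0 by Spearman's rho, at an adjusted p below 0.05. The part of all genes with such a correlation was not counted, so these counts say nothing particular about the 9 genes. syn1 had a Pearson r of 0.62 (permutation p within groups, adjusted over 9 genes, = 0.0271) and a Spearman rho of 0.45 (adjusted permutation p = 0.141). SYT1 had r = 0.60 (adjusted permutation p = 0.0271) and rho = 0.53 (adjusted permutation p = 0.0782). Without the fish with the lowest and the highest share, treated F0 male 16 and control-line F2 female 31, r was 0.52 for syn1 and 0.41 for SYT1. For sypa r was -0.55 (adjusted permutation p = 0.0592) and rho was -0.57 (adjusted permutation p = 0.104), and for the other 6 genes no adjusted p was below 0.05. Within the 6 treated F0 males alone, r was 0.93 for syn1 and 0.95 for SYT1, and -0.83 for syn2b and -0.82 for sypb. It was 0.91 for SNAP25 ENSDARG00000020609, 0.66 for SYN2, -0.81 for both sypa and ENSDARG00000058117, and -0.16 for vamp2. These 6 fish include fish 16, with the lowest share, and r within the group was not computed without it. Within the 6 control F0 males, r was 0.49 for syn1 and 0.72 for SYT1, and 0.56 for syn2b and 0.22 for sypb. For the other genes it was -0.94 for SYN2, 0.35 for ENSDARG00000058117, -0.23 for sypa, -0.11 for ENSDARG00000020609 and -0.10 for vamp2. Of the 36 pairs among the 9 genes, 16 had a positive and 20 a negative Pearson r over the fish after the group means were taken off. Only the sign was counted, and some values lay near 0, such as -0.00783 for sypb with vamp2.

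**Figure D5:**
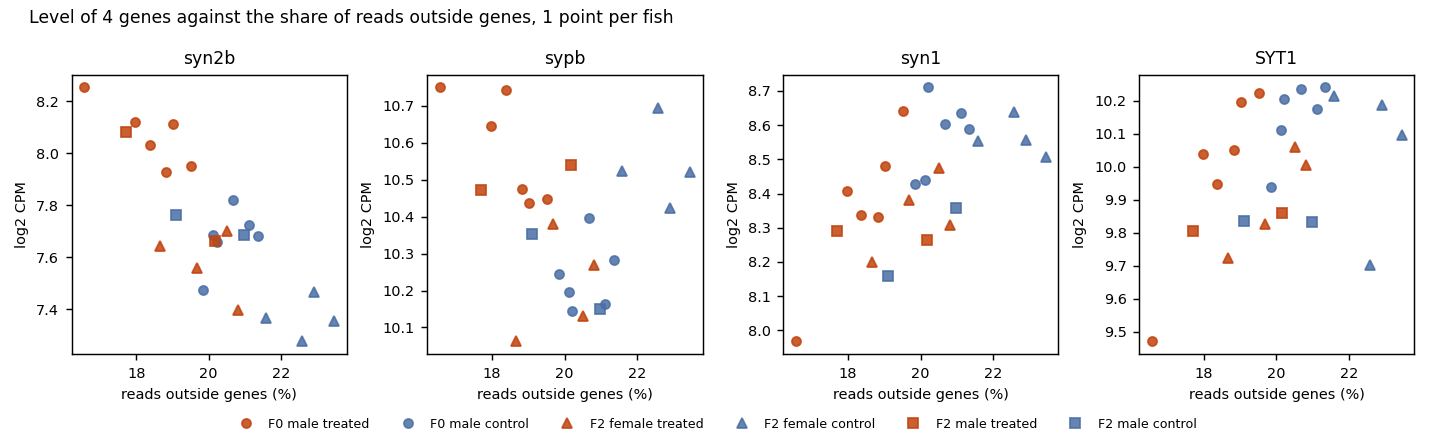
Level of syn2b, sypb, syn1 and SYT1 (log2 CPM, vertical axis) against the share of uniquely aligned reads outside genes (percent, horizontal axis), 1 point per fish, with colour for arm and shape for generation and sex. The treated F0 males lie between 16.6 and 19.5% and the control F0 males between 19.9 and 21.4%, and treated male 16 has the lowest share, the highest syn2b and the lowest SYT1.

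Some cell type markers were also called in F0 males, where 6.32% of all genes tested were called higher and 5.09% lower. Of 21 radial glia markers tested 4 rose and 0 fell, and the whole list of 23 IDs summed to 6571 to 8457 CPM in treated and 5457 to 7121 CPM in control males. The 42 photoreceptor marker IDs, of which 32 were tested and 0 passed, summed to 686 to 1207 CPM in treated and 38.5 to 1027 CPM in control males. The cone opsin opn1mw2 and the pituitary hormone gene gh1 had a median of 0 CPM in every group, which single fish may exceed. Of 20 microglia markers 1 rose, the antigen presentation gene cd74b (0.54, adjusted p = 0.0178). That is 5%, below the share of all genes called higher. Of 25 neuron markers, UCHL1 (0.34), NRGN (0.44) and both STMN2 genes (0.41 and 0.27) rose, and the neurofilament gene nefma (-0.74) and the RNA-binding protein gene ELAVL3 (-0.75) fell. Their part in the changes of the 9 genes was not tested.

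The other genes of the release pathway were taken from 6 lists of 214 names, of which 201 matched 204 gene IDs. Of 193 tested in F0 males, 21 rose and 21 fell, or 21.8% in either direction against 11.4% of all genes, with a median log2 change of -0.12. Without TMM factors 9 rose and 22 fell, with a median of -0.23. Of 29 genes for the proton pump and the transporters that load transmitter, 7 rose and 0 fell. Of 37 genes of SNARE regulators 0 rose and 6 fell, and of 13 other SNARE genes 0 passed. Of 34 genes of vesicle recycling 6 rose and 4 fell, of 41 other vesicle protein genes 5 rose and 6 fell, and of 39 active zone genes 3 rose and 5 fell.

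Among those that rose were subunits of the vesicle proton pump, with log2 changes of 0.51 and 0.36 for the 2 ATP6V0C genes and 0.35 for ATP6V1B2. The endocytic adaptor gene AP2M1 rose to 442 ± 37.9 CPM in treated males, against 343 ± 16.5 CPM in control males (SD, n = 6 each; log2 change 0.37, SE 0.0743, adjusted p = 0.0151). PICALM (0.33) and snap91b (0.27), clathrin assembly genes, the neurexin gene nrxn2b (0.35) and the proteoglycan gene cspg5a (0.32) rose as well. DNAJC6, the gene for auxilin, which strips clathrin from vesicles, fell to 58.4 ± 4.77 CPM in treated males, against 89.5 ± 13.5 CPM in control males (SD, n = 6 each; log2 change -0.61, SE 0.104, adjusted p = 0.015). The complexin gene cplx2a, whose protein clamps SNARE complexes, fell to 269.9 ± 21.7 CPM in treated males, against 364 ± 43.2 CPM in control males (log2 change -0.42, SE 0.0873, adjusted p = 0.0158). SV2A, the gene of a vesicle membrane protein, fell to 516 ± 81.4 CPM in treated males, against 689 ± 67.8 CPM in control males (log2 change -0.41, SE 0.107, adjusted p = 0.0291). The scaffold gene ITSN2 (-0.86), the SNARE disassembly genes NAPA (-0.84) and NAPB (-0.996), and the synaptotagmin genes SYT3 (-0.44) and syt13 (-0.55) also fell. AP2M1, PICALM, ATP6V0C, ATP6V1B2, ITSN2, NAPA and NAPB are each 1 of 2 IDs with their symbol.

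These pathway counts rested on single libraries too. Against 42 calls with all fish, 1 gene, DNAJC6, was called without the 3 libraries and 0 with the share covariate. Leaving out treated male 2 gave 64 calls, male 10 gave 27, male 24 gave 8 and male 36 gave 23. Leaving out control male 9 gave 13 calls, male 25 gave 12, male 31 gave 12 and male 33 gave 6. Other fits stayed nearer the full count: 23 rose and 22 fell without treated male 16, and 19 and 14 without treated male 38. Without control male 3 it was 13 and 19, and without control male 15 it was 18 and 25. Calls over all genes moved in these fits as well. They were 1755 higher and 1462 lower of 18369 genes without treated male 2, and 250 and 265 of 18227 without treated male 24. Without control male 33 they were 211 and 229 of 18367, and without control male 25 they were 360 and 388 of 18180. Without treated male 10 they were 773 and 617 of 18217, and without treated male 36 they were 665 and 533 of 18210.

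In F2 females, edgeR called 0 of the 9 genes and 0% of the 19463 genes tested between the treated and the control line. At an unadjusted p below 0.05 there were 1489 genes, of which 1 was among the 9, and DESeq2 called 59 genes (0.318%), of which 0 were among the 9. The gene at the lowest p was sypb. Its levels were 1122, 1332, 1234 and 1069 CPM in treated-line females, against 1373, 1656, 1469 and 1471 CPM in control-line females. Each treated-line female was below each control-line female, and the log2 change was -0.33 (SE 0.113, unadjusted p = 0.0106, adjusted p = 0.518).

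The synapsin I gene syn1 had 356, 333, 317 and 294 CPM in treated-line females, against 376, 399, 364 and 376 CPM in control-line females. These groups did not overlap on the TMM-scaled levels, although they did without TMM factors, and the log2 change was -0.22 (SE 0.108, adjusted p = 0.682). SYN2 had 378, 399.8, 383 and 402 CPM in treated-line females, against 375, 371, 367 and 362 CPM in control-line females. For SYN2 each treated-line female was above each control-line female, but the log2 change was only 0.09 (SE 0.0985, adjusted p = 0.942). Over all genes tested, 2.51% had treated-line females below without overlap and 1.26% above, 3.77% in all.

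Both vamp2 and sypa varied widely among F2 females. vamp2 had 248, 155, 85.9 and 279 CPM in treated-line females, against 68.2, 119.8, 109 and 164 CPM in control-line females. The groups overlapped, and the log2 change of 0.74 had an SE of 0.353 (adjusted p = 0.682). sypa had 1602, 1482, 1101 and 1404 CPM in treated-line females, against 1071, 1677, 968 and 1231 CPM in control-line females, which overlapped (log2 change 0.18, SE 0.165, adjusted p = 0.917). The coefficient of variation of vamp2 was 45.9% in treated-line and 34.2% in control-line females, compared with 22.5% in treated and 16.1% in control F0 males.

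For the other genes the female lines overlapped. syn2b had 208, 188, 168 and 199.7 CPM in treated-line females, against 177, 155, 164 and 165 CPM in control-line females, with all 4 treated-line females above the control mean (log2 change 0.21, SE 0.121, adjusted p = 0.76). The 2 SNAP25 genes had log2 changes of -0.05 (SE 0.108) for ENSDARG00000020609 and -0.06 (SE 0.127) for ENSDARG00000058117, and their ratio was 0.478 ± 0.106 in treated-line and 0.476 ± 0.0295 in control-line females (SD, n = 4 each). SYT1 had a log2 change of -0.15 (SE 0.129). The ratio of syn2b to syn1 was 0.532 to 0.679 in treated-line and 0.389 to 0.470 in control-line females, without overlap. The ratio of syn2b to SYN2 was 0.440 to 0.551 in treated-line and 0.417 to 0.471 in control-line females, which overlapped, and averaged 0.579 in treated-line and 0.633 in control-line F2 males (n = 2 each). The ratio of sypa to sypb was 1.19 ± 0.236 in treated-line and 0.822 ± 0.147 in control-line females (SD, n = 4 each). Its ranges, 0.892 to 1.43 in treated-line and 0.659 to 1.01 in control-line females, overlapped.

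The share of reads outside genes was 18.7 to 20.8% in treated-line and 21.6 to 23.5% in control-line F2 females, again without overlap. Photoreceptor markers summed to 49.4 to 1792 CPM in treated-line and 34.3 to 617 CPM in control-line females, and pituitary markers to 7.52 to 22.1 CPM in treated-line and 17.7 to 30.9 CPM in control-line females. Neuron markers summed to 6241 to 7060 CPM in treated-line and 5399 to 7054 CPM in control-line females. With the outside-gene share as a covariate the log2 change of vamp2 in F2 females was 0.06 (SE 0.499), against 0.74 without it, and that of syn2b was 0.02 (SE 0.189), against 0.21. That of sypb was -0.31 (SE 0.184) and that of syn1 -0.11 (SE 0.172), and sypa turned to -0.15 (SE 0.252). The adjusted p was 1 for all 9 genes, and the share and the line cannot be told apart. The part of the marker levels in the female line differences was not tested.

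In F2 males, with 2 fish a line, 0 of the 9 genes passed and 0% of all genes were called, with 272 genes and 0 of the 9 at an unadjusted p below 0.05. DESeq2 called 5 genes (0.0203%), 0 of them among the 9. The treated-line males were above the control-line males without overlap for SYN2, sypb, SNAP25 ENSDARG00000058117 and vamp2, but with 2 fish a line this held for 19.2% of all genes, and 38.7% did not overlap one way or the other. SYN2 had 392 and 423 CPM in treated-line males, against 338 and 330.0 CPM in control-line males (log2 change 0.29, SE 0.139, adjusted p = 1). sypb had 1489.7 and 1419 CPM in treated-line males, against 1309 and 1136 CPM in control-line males (log2 change 0.25, SE 0.16). ENSDARG00000058117 had 1247 and 1199 CPM in treated-line males, against 907 and 1087 CPM in control-line males (log2 change 0.29, SE 0.18), and the adjusted p was 1 for both. vamp2 had 246 and 235 CPM in treated-line males, against 192 and 138 CPM in control-line males (log2 change 0.54, SE 0.498, adjusted p = 1). Both sexes of F2 in one model, with sex as a term, gave 0 of the 9 genes and 0% of all genes. At an unadjusted p below 0.05 there were 1496 of 19463 genes, of which 1 was among the 9. That gene was vamp2, at a log2 change of 0.67 (SE 0.277, unadjusted p = 0.032, adjusted p = 0.595). In the model of both sexes DESeq2 called 75 genes (0.623%), 0 of them among the 9.

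The line effect on sypb was tested for a difference between groups. F2 females minus F2 males gave -0.58 on the log2 scale (SE 0.196, unadjusted p = 0.00928, adjusted p = 1.0), and 0% of all genes passed. F2 females minus F0 males, a contrast added after the direction of sypb had been seen, gave -0.68 (SE 0.132, unadjusted p = 2.25e-05, adjusted p = 0.158), with 0.00474% of all genes called. In that contrast sypb passed in DESeq2 (-0.62, adjusted p = 0.0014), which called 0.423% of all genes, and with the share covariate (-0.69, adjusted p = 0.0427), where 0.019% of all genes were called. SNAP25 ENSDARG00000058117 had -0.53 (SE 0.178, unadjusted p = 0.0062, adjusted p = 0.331), while syn2b had -0.18 (SE 0.136) and sypa -0.15 (SE 0.182). Sex and generation cannot be told apart in this contrast, since the F0 fish were all males. F2 males minus F0 males gave 0 of 9 genes in edgeR and 0 of 9 at an unadjusted p below 0.05, where 1303 of all 21082 genes were. The values were -0.23 (SE 0.172) for syn2b, -0.10 (SE 0.167) for sypb and -0.17 (SE 0.226) for ENSDARG00000058117.

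Between F2 females and F2 males, averaged over the lines, 0 of the 9 genes passed and 0.0154% of all genes were called (0.483% in DESeq2). The lowest p was for syn2b, with a log2 change of -0.33 in females over males (SE 0.104, unadjusted p = 0.00566, adjusted p = 0.878), and syn1 had 0.19 (SE 0.0946, adjusted p = 0.988). Between F2 and F0 males, averaged over the arms, 0 of the 9 genes passed in edgeR while 4.28% of all genes did, 2.24% higher and 2.04% lower. SYN2 came nearest, at -0.20 (SE 0.0666, unadjusted p = 0.00622, adjusted p = 0.083). SYN2 passed with DESeq2 (adjusted p = 0.000627), where 13% of all genes did, with median-of-ratios size factors in edgeR (adjusted p = 0.0477), where 4.06% did, and without TMM factors (adjusted p = 0.0151), where 3.78% did, 264 genes higher and 533 lower. Without treated F0 male 16, syn1 (adjusted p = 0.042), SYN2 (adjusted p = 0.0363) and SYT1 (adjusted p = 0.0318) were all called lower in F2 males. In that fit calls rose over all genes too, to 1223 higher and 1092 lower of 20997, against 472 and 430 of 21082 with all fish. Generation cannot be told apart here from rearing, handling or library preparation.

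Of the other pathway genes, 193 of which were tested, 0 passed in edgeR in F2 females (30 at an unadjusted p below 0.05), F2 males (2) and between the sexes (20). Over all 19463 genes tested, 1489, 272 and 982 were at that unadjusted p, in the same order. DESeq2 called 1, LIN7A, in F2 females, and 0 in F2 males and between the sexes. Between F2 and F0 males 3 of 199 rose and 19 fell, or 11.1% against 4.28% of all genes. nrxn2b (0.38), the SNARE gene VAMP3 (0.39) and ATP6V0C (0.39) rose. Those that fell included RAB3A (-2.17), a vesicle GTPase gene, NSF (-0.61), the gene of the ATPase that takes SNARE complexes apart, both NAPB genes (-1.25 and -1.12), RIMBP2 (-0.82), CPLX1 (-0.67), STX6 (-0.60) and APBA1 (-0.57). RAB3A, NAPB, RIMBP2 and this ATP6V0C gene are each 1 of 2 IDs with their symbol. Of 38 SNARE regulator genes 0 rose and 7 fell, with a median log2 change of -0.52. Without TMM factors 1 of the 199 rose and 22 fell. With all fish and TMM, cell type markers were called in the same comparison. Of 25 neuron markers 0 rose and 4 fell, maptb (-0.48), CAMK2A (-1.89), NCAM1 (-0.44) and ELAVL3 (-0.91), and of 22 microglia markers 3 rose, apoeb (0.44), apoc1 (0.73) and c1qa (1.54), and 0 fell. Microglia markers summed to 1216 to 1409 CPM in treated-line and 1803 to 1997 CPM in control-line F2 males, compared with 1142 to 1350.3 CPM in treated and 990.5 to 1219 CPM in control F0 males. Neuron markers summed to 6029 to 6807 CPM in treated-line and 6030 to 6048 CPM in control-line F2 males. In F0 males they summed to 6472 to 6900 CPM in treated and 6017 to 6804 CPM in control fish. Of 23 radial glia, 16 oligodendrocyte and 21 muscle markers 1 each rose and 0 fell, and 0 photoreceptor, pituitary or erythrocyte markers passed. The part of the cell type markers in the pathway counts was not tested. The 22 pathway calls rested on few fish. Leaving out 1 F2 male left 1 fish in its group, so the calls of those fits are not given. The median log2 change of the pathway genes was -0.17 with all fish. It ran from -0.27 without control-line F2 male 27 to -0.15 without control-line F2 male 25. The pathway calls numbered 14 without treated F0 male 2, 13 without treated F0 male 10 and 54 without treated F0 male 16. Over all genes the calls without these F0 males were 297 higher and 232 lower, 272 and 217, and 1223 and 1092, in that order.

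Across the 6 groups the order of mean levels differed between genes. On the TMM-scaled levels treated F0 males were highest for SYN2, syn2b, sypa, sypb and vamp2, and control F0 males were highest for syn1, SYT1 and SNAP25 ENSDARG00000020609. F2 males of the treated line were highest for ENSDARG00000058117. Of the 45 neighbouring pairs in these orders 3 did not overlap. For SYN2 these were treated-line above control-line F2 females and control-line F2 females above control-line F2 males. For sypb it was treated-line above control-line F2 males. The share over all genes was not counted, and the F2 male groups held 2 fish each. The highest group mean was 2.62 times the lowest for vamp2 and 1.18 times the lowest for ENSDARG00000020609.

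The genes whose pattern over the 24 fish was most like the mean of the 9, each scaled to its own mean and SD, were sought among 9120 other genes with a symbol and a mean of at least 10 CPM. They were rtn1a with a Pearson r of 0.86, ZC3H4 with 0.84, mtmr3 with 0.84, SLC44A5 with 0.84 and ATXN7L3 with 0.82. After the group means were taken off, r was 0.49, 0.39, 0.56, 0.58 and 0.55 for these genes in that order. These values describe likeness over fish that share libraries of different depth and share of reads outside genes, and carry no test.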

How the data were processed

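Whole brains of 24 zebrafish gave 31 libraries or runs, with 2 runs for 7 fish. The submitters' processing notes name HTSeq 0.11.2, STAR 2.7, cutadapt 2.1, DESeq2 1.24.0 and bcl2fastq, and the GRCz11 (danRer11) build. Settings, annotation release and strandedness are not given in the sources used, and counts of genes that overlap or lie antisense are uncertain. The deposited values are raw read counts per gene, not normalised. HTSeq's summary lines entered neither library sizes nor tests; reads outside genes were 16.6 to 23.5% of uniquely aligned reads.

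Runs of a fish were summed. Their CPM over library size alone of the 9 genes differed by a median of 1.31% (highest 5.01%), and the chi-square per degree of freedom was 1.03 to 1.19 between runs against 18.3 to 115 between fish of a group. The fish is the replicate, and p-values measure the spread between these fish only. Each fish had 12.2 to 34.1 M gene reads. Levels per fish are CPM over library size and TMM factor.

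The test was edgeR 4.0.16 (robust glmQLFit and glmQLFTest, TMM, filterByExpr with a minimum count of 10) under R 4.3.3, adjusted by Benjamini-Hochberg over all genes tested. F0 males were fitted alone, F2 fish in 4 groups of sex and line, and contrasts between generations over all 24 fish. The scripts were tested on simulated counts. Alternatives were median-of-ratios size factors, library size without TMM factors (added after the results were seen), DESeq2 1.42.0, no filter, first runs only, the outside-gene share as covariate, all fish in one model, leaving out each fish, and leaving out 3 F0 libraries together. Correlations with that share used 100000 permutations within groups.

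The genes, lists and 3 libraries were chosen with earlier results of these data known. All 9 genes are named; of the pathway lists, up to 8 genes per direction with the lowest p among those called; of similar genes, the 5 with the highest correlation. No sequence of these genes was used here.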

Additional observations from a re-analysis of the deposited data

Results flagged for a closer look

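Of 36 groups of 4 or 6 fish examined, 1 held a fish far from the others. For SNAP25 ENSDARG00000020609 in treated F0 males, fish 16 was lowest at 1764 CPM, and its gap to the nearest of the others was above the limit of Dixon's test. Chance marks about 1 in 20 groups, so about as many would be marked by chance alone. The same fish had the lowest share of reads outside genes, 16.6%, the lowest syn1 and SYT1 and the highest SNAP25 ENSDARG00000058117 of the treated males. What sets it apart was not tested.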

How the results depend on the processing

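No paired analysis was possible because treated and control fish share no numbers within any comparison. In F0 males 4 of the 9 genes were called with median-of-ratios size factors, DESeq2, no filter or first runs only, and 3 with all 24 fish in one model or without TMM factors, where sypa missed (adjusted p = 0.106 and 0.0515). They numbered 0 with the share covariate and 0 without the 3 libraries, and 1 to 4 when 1 fish was left out. With that covariate syn1 turned to 0.18 and SYT1 to 0.33, and without TMM factors SYN2 turned to -0.0253; the causes were not tested. In F2 females sypa turned to -0.149, ENSDARG00000020609 to 0.0723 and ENSDARG00000058117 to 0.172 with the covariate, and the last ran from -0.16 to 0.015 without 1 fish. F2 over F0 males gave 1 call with size factors, 1 without TMM factors, 1 with DESeq2 and 0 to 3 without 1 fish. F2 females minus F0 males gave 1 call with DESeq2 and 1 with the covariate. F2 males minus F0 males, -0.04 for sypa and -0.17 for SNAP25 ENSDARG00000058117 with all fish, turned for sypa to 0.0848 with the covariate, 0.0391 without the 3 libraries and 0.0669 without TMM factors, for sypb to 0.0122 without TMM factors, and for SNAP25 ENSDARG00000058117 to 0.00566 without the 3 libraries. Without 1 fish it ran from -0.22 to 0.13 for sypa and from -0.20 to 0.00861 for sypb, and F2 females minus F0 males from -0.25 to 0.0355 for sypa. Pathway calls in F0 males, 42 with all fish, were 64 with DESeq2 and 25 with all 24 fish in one model. They were 1 without the 3 libraries, 0 with the covariate and 6 to 64 without 1 fish. Over all genes 11.4% were called with all fish, then 20%, 3.73%, 0.227% and 0% in the order of these settings. Pathway calls in F2 over F0 males were 22 with all fish and 49 with DESeq2, where 4.28% and 13% of all genes were called. They were 37 with the covariate (826 higher and 619 lower over all genes) and 39 without the 3 libraries (857 and 695). With the 16 males alone they were 58 (1347 and 1931 of 20373), and without 1 F0 male up to 54. Log2 changes were followed across settings for all 9 genes in F0 males and F2 females, and only for selected genes in the other comparisons. Of these followed values, 254 kept direction and side of the threshold, 10 lost a call, 5 gained one and 11 turned. Without 1 fish the counts were 429, 10, 3 and 6, in that order. Values of the genes not followed were not counted. The lowest count of these genes in any fish was 1567 reads, and an effect of depth was not tested.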
